A study of Schmidtea mediterranea with 12 samples.

Results

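Of the 28069 transcripts counted in laser-captured tissue of the planarian flatworm Schmidtea mediterranea, 23 were abundant enough to be measured in both regions of the intestine and were close to absent from the tissue around it. They were selected on CPM, that is, reads of a transcript divided by all counted reads of its library and multiplied by 1000000, with no other scaling. A member had a mean of at least 5 CPM over the 4 medial intestine libraries and over the 4 lateral intestine libraries, and a mean under 0.25 CPM over the 4 non-intestine libraries. In all, 6515 transcripts met the intestinal limits, 11557 met the non-intestine limit and 26 met all of them, of which 3 were left out by identifier. All 23 passed the filter on low counts of the fit described here (at least 1 CPM in at least 4 libraries), as did 13136 transcripts in total. The intestinal and non-intestine levels chose the members, so the contrast between those tissues is a description, and no test of it is read. The contrast between medial and lateral intestine was not used in the choice and was tested.

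The 12 libraries came from 4 uninjured planarians of the asexual clonal line CIW4. Each animal gave 1 library per tissue, namely medial intestine, lateral intestine and the tissue outside it (non-intestine). The animals measured 6 to 9 mm and had been starved for 7 days, and tissue was cut by laser from stained sections 20 µm thick, anterior to the pharynx. Library preparation used a 3′ mRNA kit (QuantSeq) and 5 ng of RNA per capture, and in such libraries reads pile up near the 3′ end of a transcript. The animals belong to 1 clone, and sections of an animal were pooled, so the spread between libraries is that between animals of a clone and between captures. Medial denotes the primary branches near the midline and lateral the finer side branches, whereas non-intestine is a mixture of the remaining tissues of the region.

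The planarian gut is a blind, branched epithelium with a single opening through the pharynx. Phagocytes take up and digest food particles inside the cell, goblet cells secrete enzymes and other products into the lumen, and basal cells lie against the visceral muscle. Food products have to leave the gut by uptake and transport across its cells, since planarians have no circulatory system, and solute carriers, lysosomal hydrolases and detoxifying enzymes are therefore typical products of gut cells in animals.

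Total counts were 20416476 to 29454911 per medial library, 21645454 to 33296270 per lateral library and 20227187 to 32272982 per non-intestine library. The labels were checked with markers. Summed over 6 phagocyte markers, the level was 6438 to 8198 CPM in medial, 6025 to 8298 CPM in lateral and 189 to 302 CPM in non-intestine libraries, and 9 markers of other tissues summed to 402 to 533, 405 to 595 and 1067 to 1243 CPM. The muscle regulator MYOD1 averaged 0.095 CPM in medial and 0 CPM in lateral libraries, against 2.11 CPM in non-intestine, whereas the stem cell gene PIWIL1 averaged 101.1 and 127 CPM, against 337 CPM. These 9 markers separated the tissues unequally. Their non-intestine level ran from 110% (GAD1) to 4459% (MYOD1) of the intestinal level, with a median of 295%. In bulk tissue fewer cells of a type and less RNA per cell cannot be told apart.

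The 23 transcripts were expressed at a low to moderate level in the gut. Their group means lay between 5.84 and 27.4 CPM in medial intestine (median 12.4) and between 5.93 and 31.2 CPM in lateral libraries (median 12.3), against 0 to 0.248 CPM in non-intestine (median 0.154). Summed over all members, medial libraries held 339, 277, 212 and 375 CPM, lateral libraries 228, 485, 287 and 228 CPM, and non-intestine libraries 1.58, 3.97, 6.51 and 1.78 CPM, for animals 1 to 4. The lowest intestinal library was thus far above the highest non-intestine library in the summed level, and for 22 of the 23 single members the groups did not overlap either, where 8.34% of all tested transcripts had every intestinal library above every non-intestine library. The rule used this contrast, so nothing is read from that count. The fit across all transcripts called 12.8% of those tested higher in medial intestine than in non-intestine, and 11.7% higher in lateral intestine. Calls needed a false discovery rate (FDR) below 0.01 and more than a 2-fold difference. All 23 are in both sets, which follows from the rule that chose them, so nothing is read from these calls either.

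**Figure D1:**
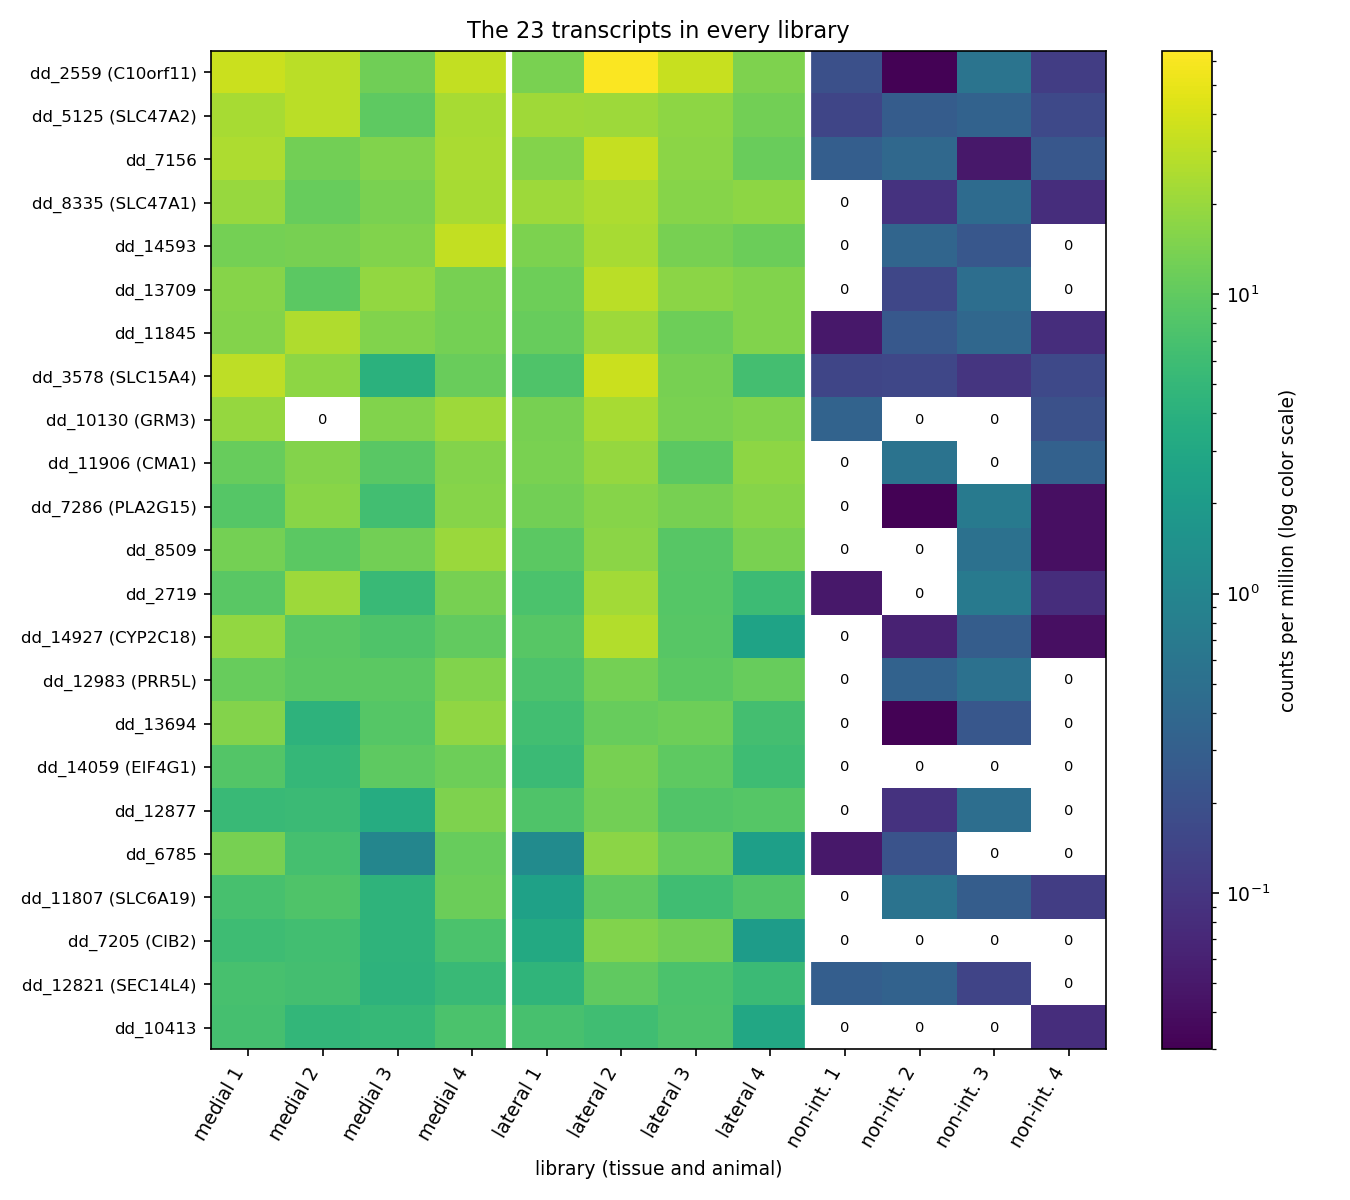
CPM of the 23 transcripts (rows, ordered by mean intestinal CPM) in the 12 libraries (columns, tissue and animal), on a log color scale, with a 0 printed where a library had no count. Of the 92 non-intestine cells 35 are empty, whereas 1 of 184 intestinal cells is (GRM3 in medial 2).

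Only 13 of the 23 carry a name in the tables used here, each that of its best match among human proteins, and 10 do not. By described role, the named ones comprise 4 membrane transporters, 3 receptor or signalling proteins, 3 enzymes and 3 others. The roles given below are those known from mammals. Transcripts are called dd_ with the number of their entry in the dd_Smed_v6 transcriptome, and genome positions were not analysed here.

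Transporters were the largest named group, and 2 of the 4 were multidrug and toxin extrusion proteins, which expel organic cations in exchange for protons. SLC47A2 (dd_5125) had 23.6, 29.0, 9.62 and 24.1 CPM in medial intestine and 21.7, 21.3, 17.4 and 12.5 CPM in lateral libraries of animals 1 to 4, against 3, 9, 7 and 4 counts in non-intestine (0.148, 0.279, 0.340 and 0.162 CPM). SLC47A1 (dd_8335) had 20.0, 10.9, 13.9 and 24.0 CPM in medial and 20.9, 25.5, 16.1 and 17.5 CPM in lateral libraries, against 0, 3, 9 and 2 counts in non-intestine. Both were seen at above 9 CPM in all 8 intestinal libraries, their medial and lateral values overlapped, and no non-intestine library reached 0.5 CPM.

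SLC15A4 (dd_3578), a proton-coupled transporter of peptides and histidine in lysosomes, varied far more between captures. It had 29.8, 17.5, 4.01 and 11.3 CPM in medial and 7.86, 34.7, 13.4 and 6.48 CPM in lateral libraries, against 3, 5, 2 and 4 counts in non-intestine. Its coefficient of variation (CV, the SD as a percent of the mean) was 69.7% over the medial and 83.9% over the lateral libraries, while its non-intestine level was even across animals, at 0.141 ± 0.030 CPM (SD, n = 4). The fourth transporter, dd_11807, matches SLC6A19, the sodium-dependent carrier of neutral amino acids in the gut and kidney of mammals, among human proteins, and a serotonin transporter among all organisms compared. It averaged 7.71 ± 2.90 CPM in medial and 6.70 ± 3.27 CPM in lateral libraries, against 0.243 ± 0.242 CPM in non-intestine (SD, n = 4 each), and at 3.37% its non-intestine level was the highest of the members relative to its intestinal level.

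Other transcripts with the same human match show how far the near absence outside the gut is shared by relatives. The rule limits the level of members outside the gut but not that of relatives. A lower relative level outside the gut in a member than in its relatives, here or below, is thus partly built in. Only part of the tables that give these names was used here, so relatives may be missing. For SLC47A1 or SLC47A2 they held 7 transcripts, each with a higher mean in the gut. Next to the members, with 0.822% (dd_8335) and 1.17% (dd_5125) of their intestinal level in non-intestine, stood dd_2361 with 1.08%, dd_10595 with 1.85%, dd_9513 with 3.20%, dd_7241 with 5.52% and dd_14632 with 14.2%. dd_2361 missed the selection because it is more abundant throughout, with means of 69.1 ± 21.6 CPM (medial) and 72.8 ± 22.0 CPM (lateral), against 0.769 ± 0.780 CPM in non-intestine (SD, n = 4 each). For SLC15A4 the picture differed, since its relatives dd_11818 and dd_6691 kept 37.6% and 37.8% of their intestinal level outside the gut, against 0.899% for dd_3578.

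The study listed 74 solute carriers as intestine-enriched, chosen on these same samples, and all 4 transporters are among them. Over that list the non-intestine mean ran up to 36.0 CPM with a median of 4.61 CPM, and 6 of the 74 were under 0.25 CPM. Its lists of 30 Rab GTPases and 35 TRAF proteins (adaptors of innate immune receptors), also chosen on these samples, held none of the 23. In non-intestine, 1 of the 30 and 3 of the 35 had a mean under 0.25 CPM. The lowest of the Rab list, 0.212 CPM, equals the mean of dd_6588, an identifier that the rule leaves out. The identifiers left out thus bear on the absence of members from these lists, and nothing is read from it.

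The receptor and signalling proteins comprised GRM3, CIB2 and PRR5L. GRM3 (dd_10130), a G protein-coupled receptor for glutamate, had 19.0, 0, 15.1 and 20.8 CPM in medial and 13.3, 24.1, 13.7 and 15.0 CPM in lateral libraries, against 7, 0, 0 and 5 counts in non-intestine. It was the sole member whose groups overlapped, because the library of medial intestine of animal 2 had no GRM3 read, where the other 7 intestinal libraries had 313 to 561. With 20416476 counts in that library, 0 counts allow up to 0.147 CPM (3 counts, counting error only), far below the 13.3 CPM of the next lowest intestinal library.

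CIB2 (dd_7205), a calcium-binding protein of the EF-hand type, was 1 of 2 members without a single read in the 4 non-intestine libraries. It had 5.94, 6.32, 4.45 and 7.48 CPM in medial and 3.15, 15.2, 12.6 and 2.10 CPM in lateral libraries. Taking 3 counts in the 4 non-intestine libraries together as the floor (0.0307 CPM), CIB2 was at least 199.0-fold higher in medial and at least 266.5-fold higher in lateral intestine. A second transcript matching CIB2, dd_10241, had a mean of 1.84 CPM in non-intestine, or 9.70% of its intestinal level. PRR5L (dd_12983), which binds the kinase complex mTORC2, averaged 11.2 ± 2.72 CPM in medial and 10.3 ± 2.38 CPM in lateral libraries, against 0.219 ± 0.265 CPM in non-intestine (SD, n = 4 each), with 11 counts in each of animals 2 and 3 and none in the others.

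The enzymes were a protease, a lysosomal lipase and a monooxygenase. CMA1 (dd_11906) is chymase, a serine protease that mammalian mast cells store in granules. It had 10.9, 15.6, 9.09 and 15.6 CPM in medial and 13.8, 19.5, 9.40 and 17.5 CPM in lateral libraries, against 0, 18, 0 and 8 counts in non-intestine. The counts outside the gut thus came from animals 2 and 4 alone, and with 18 CMA1 shared the highest count of any member in a non-intestine library with dd_11807.

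PLA2G15 (dd_7286), a phospholipase A2 that degrades membrane lipids in lysosomes, averaged 11.9 ± 5.18 CPM in medial and 14.5 ± 1.76 CPM in lateral libraries, against 0.188 ± 0.329 CPM in non-intestine (SD, n = 4 each), and 14 of its 16 non-intestine counts lay in animal 3. The 3 other transcripts found to match PLA2G15 kept between 14.4% (dd_3592) and 58.7% (dd_1306) of their intestinal level in non-intestine, against 1.43% for dd_7286. CYP2C18 (dd_14927), a cytochrome P450 that oxidizes lipids and foreign compounds, averaged 11.4 ± 4.82 CPM in medial and 11.7 ± 10.3 CPM in lateral libraries, against 0.099 ± 0.131 CPM in non-intestine (SD, n = 4 each). Its lateral libraries spread from 2.59 CPM in animal 4 up to 26.4 CPM in animal 2.

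Among the other named members was the most abundant of all, C10orf11 (dd_2559), a leucine-rich repeat protein tied to pigment cell differentiation in vertebrates. It had 35.4, 29.7, 12.3 and 32.2 CPM in medial and 14.1, 61.6, 34.4 and 14.6 CPM in lateral libraries, against 4, 1, 12 and 3 counts in non-intestine. The other C10orf11 match in the tables, dd_1865, was higher in the gut (49.9 CPM in medial, 57.1 CPM in lateral libraries), yet kept 18.4 CPM in non-intestine.

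EIF4G1 (dd_14059) matches a scaffold protein of translation initiation among human proteins, and NAT1 among all organisms compared. The transcript is 1238 bases long and was the other member without a read outside the gut. It had 8.42, 5.04, 9.81 and 12.0 CPM in medial and 5.58, 13.5, 9.73 and 5.91 CPM in lateral libraries, with 859 counts over the medial and 926 over the lateral libraries. On the same floor it was at least 292-fold higher in medial and at least 277-fold higher in lateral intestine. SEC14L4 (dd_12821), of a family of lipid-binding proteins, was the least abundant in medial intestine, with means of 5.84 ± 1.19 CPM (medial) and 6.94 ± 2.39 CPM (lateral), against 0.196 ± 0.155 CPM in non-intestine (SD, n = 4 each).

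The means of the 10 unnamed members ran from 5.98 to 19.4 CPM in medial and from 5.93 to 19.2 CPM in lateral libraries, below the highest named members (27.4 and 31.2 CPM for C10orf11), against 0.020 to 0.248 CPM in non-intestine. The highest was dd_7156, with 25.1, 12.5, 15.3 and 24.5 CPM in medial and 15.7, 32.8, 16.9 and 11.3 CPM in lateral libraries, against 6, 13, 1 and 6 counts in non-intestine. It lay just inside the non-intestine limit, and it was 1 of 5 members with reads in all 4 non-intestine libraries.

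Of the others, dd_14593 had 13.1, 13.4, 15.4 and 32.5 CPM in medial and 14.4, 24.1, 13.3 and 11.5 CPM in lateral libraries, against 0, 12, 5 and 0 counts in non-intestine. dd_13709 had 16.1, 9.40, 18.7 and 13.6 CPM in medial and 12.1, 29.0, 16.9 and 15.3 CPM in lateral libraries, against 0, 5, 10 and 0 counts in non-intestine. dd_11845 had 15.7, 25.7, 15.2 and 13.0 CPM in medial and 10.8, 21.0, 11.9 and 15.0 CPM in lateral libraries, against 1, 8, 8 and 2 counts in non-intestine. In all 3 the lateral library of animal 2 was the highest of its region, and most non-intestine reads came from animals 2 and 3.

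At the low end, dd_10413 had 587 counts over the medial and 657 over the lateral libraries, against 2 counts in non-intestine, both in animal 4. The ratio of pooled CPM was 299 for medial over non-intestine (95% exact counting interval 82.4 to 2474) and 295 for lateral over non-intestine (81.4 to 2442). The intervals cover counting error only and not the spread between animals. The rule chose dd_10413 on this contrast, so the ratios describe it and test nothing. The shortest member, dd_6785 (340 bases), had the largest CV of the members over lateral libraries, at 95.3%, and 67.9% over medial libraries, where SLC15A4 had the largest.

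The members were also ranked per length, on the deposited TPM values, which are divided by transcript length and brought to a common total. C10orf11 led with a mean of 25.9 TPM over the 8 intestinal libraries, followed by dd_7156 with 22.3 TPM and dd_6785 with 20.4 TPM, and SLC6A19 was lowest with 3.28 TPM. Since a 3′ protocol yields about the same number of reads for a short and a long transcript, TPM places short transcripts such as dd_6785 (a mean of 7.98 CPM) higher than CPM does, and the order of members of unequal length differs between the scales. Members had a median length of 1213 bases (340 to 3170), against 1435 bases for all tested transcripts and 1532 bases for the 3946 other tested transcripts in the same range of mean intestinal CPM. The 10 unnamed members had a median of 852 bases, and the 4 transporters one of 1890.5 bases.

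Outside the gut, the reads of the members were few and clumped. Over 23 members and 4 non-intestine libraries, 35 of 92 values were 0, and the 57 others had a median of 5 counts and a maximum of 18, with 10 values of a single count. In all there were 338 counts in non-intestine, against 61850 counts in the 8 intestinal libraries. Reads were present for 9 members in animal 1, for 17 each in animals 2 and 3, and for 14 in animal 4. Only 5 members had reads in all 4 non-intestine libraries, 6 had them in 3, 9 in 2, 1 in a single library and 2 in none. No molecular identifiers are mentioned for these libraries, so a count is a read and not necessarily a molecule.

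Relative to the gut, the summed non-intestine level of the 23 was 1.14% of their summed intestinal level, and single members ran from 0 to 3.37% with a median of 0.978%. This depends on the scaling, since TMM normalization, which sets libraries to a common level over most transcripts, gave 0.712%, and it was 0.759% without animal 3. The libraries with the most reads of the members were not equally rich in other intestinal RNA: the non-intestine library of animal 3 held 4.12 times the summed CPM of the members in that of animal 1, and 1.16, 1.42 and 1.39 times the summed CPM of the phagocyte, goblet and basal markers. Whether gut RNA carried into the non-intestine captures had a part in the reads of the members was not tested.

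A low share outside the gut was not limited to the selected transcripts. Goblet cell markers had between 1.08% (pi16) and 7.71% (lipf) of their intestinal level in non-intestine, with 10 of 11 at or under the highest member, phagocyte markers between 2.296% (apob-2) and 42.7% (hnf-4), with 3 of 6, and basal cell markers between 4.84% (slc22a6) and 15.1% (cyp2u1), with none of 6. Of the 1456 transcripts higher in both intestinal regions than in non-intestine, the median share was 31.8%. Among them, 185 that are not members had a share at or under that of the highest member. Of these, 27 had a share at or under the median of the members, at intestinal levels between 1.05 and 1417 CPM. The 27 include dd_10160, dd_13811 and dd_15049, identifiers that the rule leaves out. The median of these 27 was 3.56 CPM, below the mean of 5.96 CPM of the least abundant member.

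**Figure D2:**
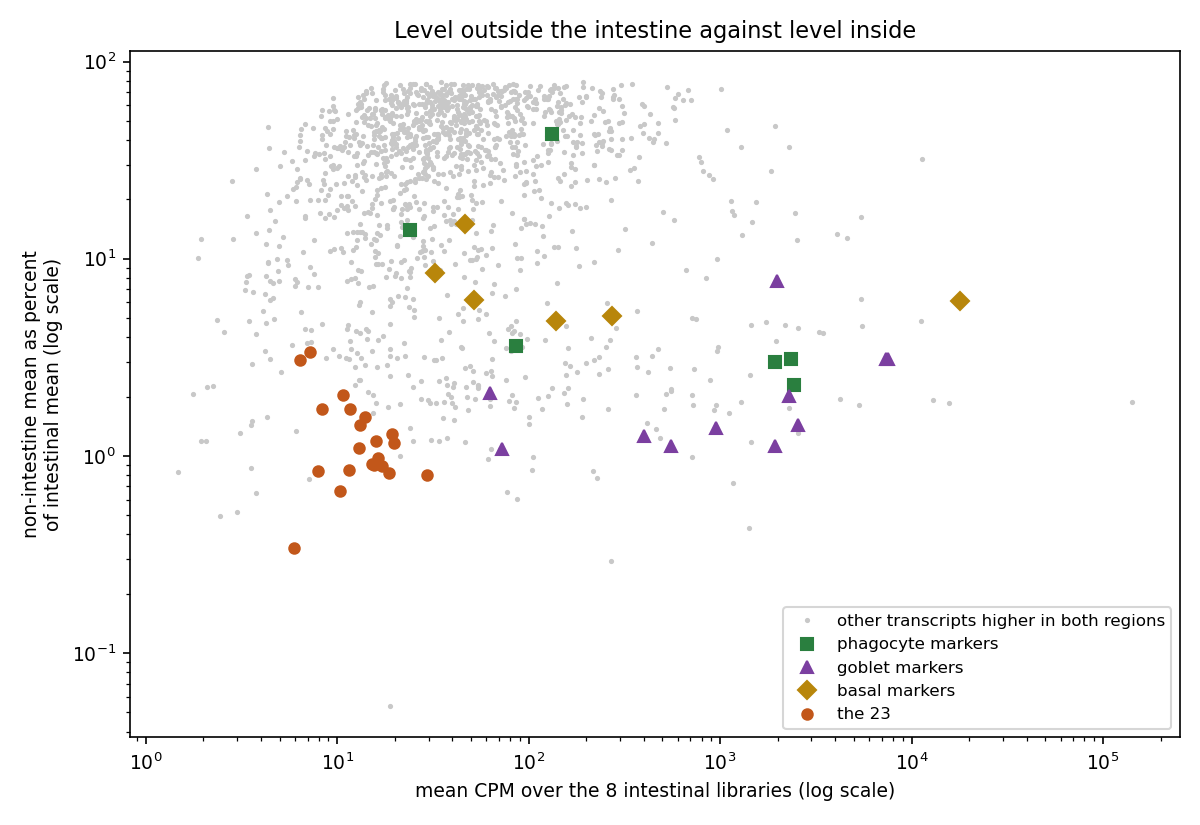
Mean non-intestine CPM as a percent of mean intestinal CPM (vertical, log scale) against mean CPM over the 8 intestinal libraries (horizontal, log scale), for the 23 transcripts, the marker lists and the other transcripts higher in both regions. The 2 members and 11 other transcripts with no non-intestine count are not drawn. The members lie at 0.340 to 3.37%, beside most goblet markers in share and below them in abundance.

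The limits of the selection cut through a continuum. The 3 members nearest to the non-intestine limit were dd_7156, SLC6A19 and C10orf11, at 0.248, 0.243 and 0.233 CPM, and the nearest transcripts that failed only this limit were dd_6998, dd_7149 and dd_2981 (NPL), at 0.256, 0.259 and 0.274 CPM. At the intestinal limit, the lower of the 2 regional means was 5.84 CPM for SEC14L4, 5.93 CPM for dd_10413 and 6.05 CPM for CIB2 on the inside. On the outside it was 4.59 CPM for dd_20353 (SLC32A1), 4.36 CPM for dd_18043 and 4.27 CPM for dd_13810.

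Medial and lateral intestine were then compared for the 23, the contrast that the selection had not used. By edgeR's quasi-likelihood test, with calls at an FDR below 0.01 and more than a 1.5-fold difference, 0 of 23 were called. Of all transcripts tested 0.289% were called, 0.129% higher and 0.16% lower in medial intestine (17 and 21 of 13136). Without adjustment, 0 of 23 had a p under 0.05, against 8.5% of all transcripts. The share was 5.93% of the 3946 others in the same range of intestinal CPM. Among these, it was 1.74% of the 518 that were higher in both regions than in non-intestine, so 0 of 23 does not set the members apart. The likelihood ratio test and DESeq2 called 0 members as well, with 1.33% and 1.29% of all transcripts called. The lowest adjusted p of a member was 0.969.

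The median log2 fold change of medial over lateral intestine was 0.10 for the members and -0.03 for all tested transcripts. For the others in the same range of intestinal CPM it was -0.01, and for those among them higher in both regions than in non-intestine 0.05. Fitted values were above 0 for 14 members and below 0 for 9 (13 and 10 without scaling between libraries), and ran from -0.38 for CIB2 to 0.44 for dd_13694. Intervals were wide, with standard errors between 0.31 and 0.96. SLC47A2 had the tightest, at 0.26 with a 95% interval of -0.45 to 0.97, and for the 22 others the interval included a doubling or a halving. The sign of the median rested on single libraries: it was -0.14 without medial 1, -0.03 without medial 4, -0.02 without lateral 1, -0.14 without lateral 4, -0.13 without animal 1 and -0.20 without animal 4.

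**Figure D3:**
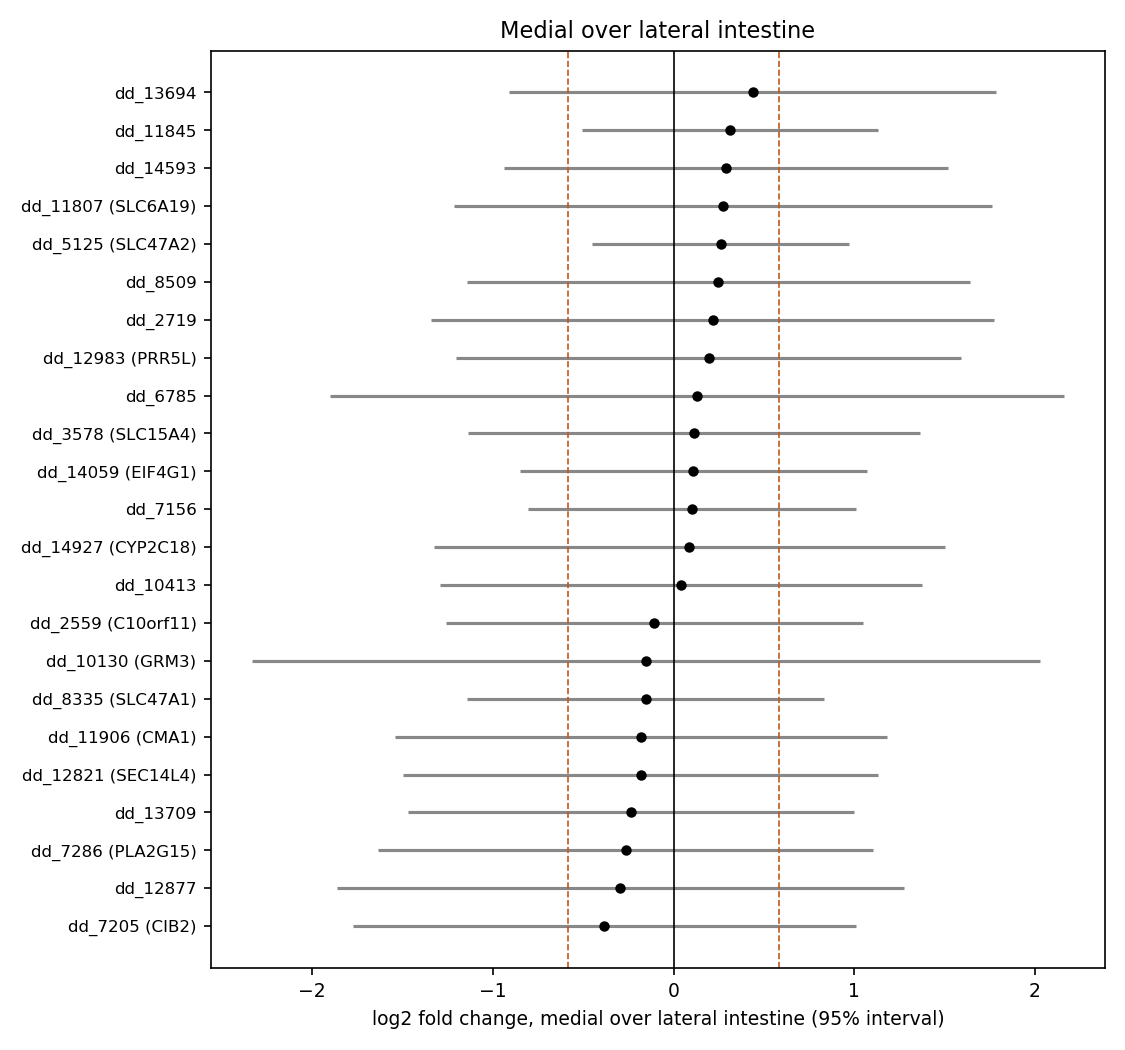
Log2 fold change of medial over lateral intestine for each of the 23 transcripts (points) with its 95% interval (bars, from the standard error and 9 residual degrees of freedom). Dashed lines mark a fold change of 1.5 in either direction. All intervals include 0.

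Within animals, the 2 regions differed for many members at once, but in opposite directions in different animals. In animals 1 and 4, 17 and 19 of the 23 were higher in medial than in lateral intestine, whereas in animals 2 and 3 only 3 and 7 were (17, 4, 8 and 19 in animals 1 to 4 after TMM scaling). Summed CPM was 339 in medial against 228 in lateral intestine of animal 1, 277 against 485 in animal 2, 212 against 287 in animal 3 and 375 against 228 in animal 4. Other transcripts in the same range of intestinal CPM were near parity, with 51.5%, 42.9%, 44.7% and 47.5% higher in medial intestine of animals 1 to 4. Of the 518 among them that were higher in both regions than in non-intestine, 72.4%, 29.9%, 41.3% and 60.4% were (71.6%, 34.4%, 47.9% and 62.2% after TMM scaling), against 73.9%, 13.0%, 30.4% and 82.6% of the members. These shares lay on the same side of parity in each animal, nearer to it for the 518, and the difference was not tested. The summed phagocyte markers were 8198 CPM in medial against 6025 CPM in lateral intestine of animal 1, 6846 against 8298 CPM in animal 2, 6438 against 6133 CPM in animal 3 and 7458 against 6259 CPM in animal 4. They thus ran in the direction of the summed members in animals 1, 2 and 4 and opposite to it in animal 3. Goblet and basal markers, given as medial against lateral CPM of animals 1 to 4, did not follow this pattern. Goblet markers summed to 17853 against 30393, 16993 against 35486, 21915 against 31576.5 and 19685.5 against 31685. Basal markers summed to 15612 against 19353, 14310 against 16940.5, 17557 against 18387 and 18417 against 26506. Both lists thus ran with the summed members in animals 2 and 3 and opposite to them in animals 1 and 4. The part of the marker lists in the split was not tested.

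**Figure D4:**
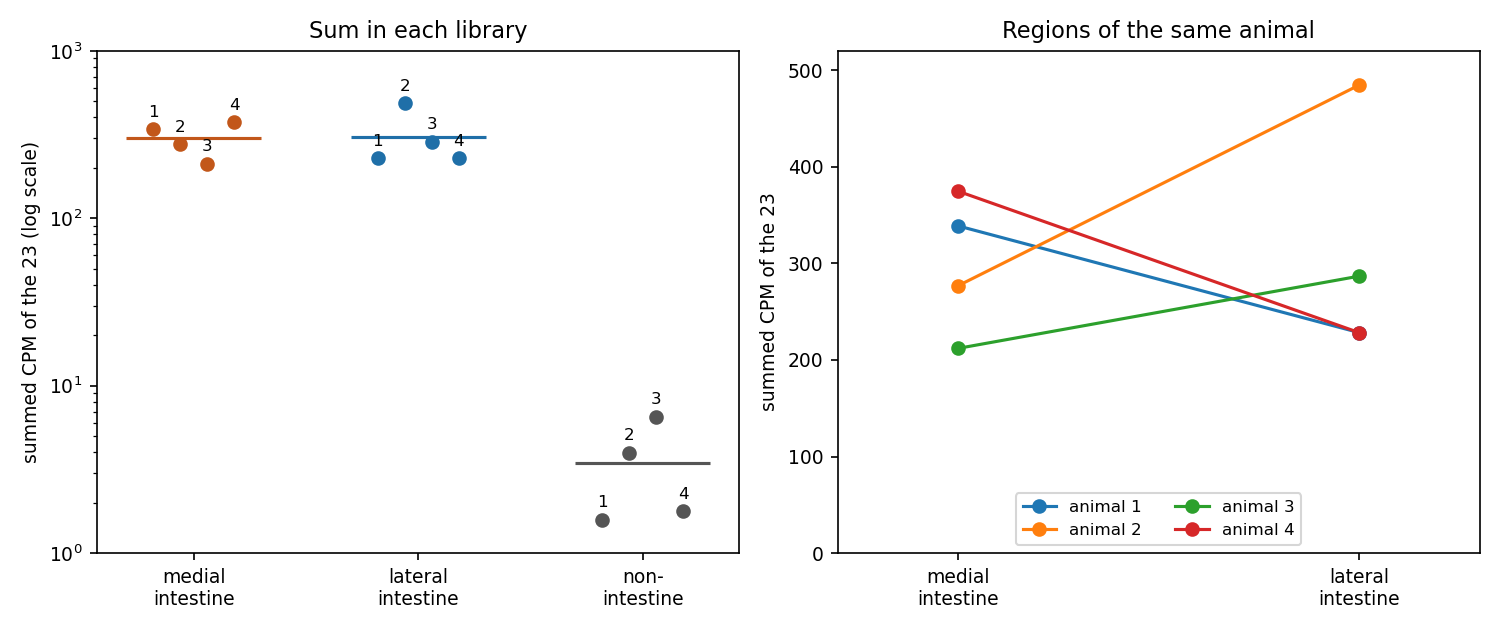
Summed CPM of the 23 transcripts in each library (left, log scale, points numbered by animal, lines at the group mean) and in the regions of each animal (right, linear scale, joined by animal). Intestinal libraries lie between 212 and 485 CPM and non-intestine libraries between 1.58 and 6.51 CPM, and the lines of animals 2 and 3 run opposite to those of animals 1 and 4.

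CMA1 was the single member with the same direction in all 4 animals. It was lower in medial intestine in each, or in 3 of 4 after TMM scaling, with a log2 fold change of -0.18 ± 0.60 (SE) and an adjusted p of 1 by edgeR's quasi-likelihood test. It is named for this pattern among 23 members, so the pattern carries no test. The members with the largest fitted values, dd_13694 (0.44 ± 0.60) and CIB2 (-0.38 ± 0.62), were higher in medial intestine in 2 animals and lower in 2. dd_13694 had 15.7, 4.26, 8.65 and 18.2 CPM in medial and 6.37, 10.995, 12.1 and 6.52 CPM in lateral libraries.

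The lateral library of animal 2 stood out. It was the highest lateral library for 19 of 23 members, against 42.1% of the other transcripts in the same range of intestinal CPM and 58.3% of those among them that were higher in both regions than in non-intestine. After TMM scaling the count was 17 of 23, against 28.4% and 40.2%. For the median member this library exceeded the mean of the other 3 lateral libraries 1.72 times (1.46 times after TMM scaling), against 1.17 times (0.995 times) for the other transcripts in range and 1.37 times (1.16 times) for those among them higher in both regions. It also had the smallest share of counts in its 5 most abundant transcripts, at 29.7%, where the other lateral libraries had 34.7 to 42.7%, and the phagocyte and goblet markers were at their highest there. Phagocyte markers summed to 8298 CPM, where the other lateral libraries had 6025 to 6259 CPM, and goblet markers to 35486 CPM, where they had 30393 to 31685 CPM. Basal markers were lowest there, at 16940.5 CPM where the others had 18387 to 26506 CPM, and the markers of other tissues, at 427 CPM, lay within the 405 to 595 CPM of the others. The part of these values in the result was not tested. The pattern was noticed in these data and its comparison carries no test.

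Members differed in spread. In lateral intestine, the CV was above 70% for 6 members: 95.3% for dd_6785, 88.0% for CYP2C18, 83.9% for SLC15A4, 80.0% for CIB2, 71.8% for C10orf11 and 70.5% for dd_2719. A high value in the lateral library of animal 2 itself raises this measure. At the other end, PLA2G15 had a CV of 12.2%, SLC47A1 one of 20.8%, PRR5L one of 23.2% and SLC47A2 one of 23.3%. Over all members the median CV was 37.7% in medial and 34.5% in lateral intestine, against 32.6% and 29.1% for the other transcripts in range, and 29.5% and 30.4% for those higher in both regions.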

How the data were processed

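The authors trimmed reads with BBDuk, aligned them with Bowtie2 2.3.1 to 28069 dd_Smed_v6 transcripts and counted them with SAMtools 1.3. The deposited counts are raw reads per transcript, and all fits start from them. The authors' TPM, adjusted for length and brought to equal totals, served only to rank levels. The authors' CPM (signal, on TMM-adjusted library sizes) and the deposited RPKM were not used, nor were the authors' log2 fold changes, likelihood ratios, p-values and FDR. Lengths in bases are as deposited. Members, gene lists and markers were chosen with earlier results of these data known. Named values follow a rule: all 12 libraries for the 10 members with the highest intestinal CPM, those with no non-intestine count, those called between regions, and up to 3 per direction with the same sign in 4 animals.

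Transcripts that did not reach 1 CPM in 4 libraries were removed. Counts were fitted with edgeR 4.0.16 in R 4.3.3 (TMM, quasi-likelihood test, tissue as the term, all 12 libraries), with Benjamini-Hochberg adjustment over 13136 transcripts. Simulated data with changes larger than the 1.5-fold limit served to check the fit and say nothing on the members. TMM moved the median log2 fold change of all transcripts by 0.70 for medial and 0.65 for lateral intestine against non-intestine, and by 0.05 between the regions. Standard errors, the size of the log2 fold change over the square root of F, are approximate. DESeq2 1.42.0 was an alternative. Libraries with the same number come from the same animal by the study's design. The correlation of their deviations from the tissue means was between -0.003 and 0.247, and animal was a block in an alternative. Counting intervals and the floor of 3 counts cover counting error only. Summaries used Python 3.11.15 with pandas 2.3.3 and scipy 1.17.1.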

Additional observations from a re-analysis of the deposited data

Results flagged for a closer look

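Groups of 4 libraries were formed for each member in medial and in lateral intestine, and for the summed level in each tissue. In 4 of 49 such groups the highest library stood apart from the others by Dixon's criterion. Chance meets it in about 1 of 20 independent groups. These groups share the same libraries and are not independent, so the count is not weighed against that rate. dd_14593 had 32.5 CPM in medial intestine of animal 4, where the other medial libraries had 13.1 to 15.4 CPM. GRM3 (dd_10130) had 24.1 CPM in lateral intestine of animal 2, where the others had 13.3 to 15.0 CPM. dd_2719 had 22.6 CPM in the same library, against 5.80 to 8.47 CPM in the others, and dd_12877 had 12.8 CPM, against 7.86 to 8.46 CPM.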

How the results depend on the processing

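The number of transcripts selected depends on the scaling and the limits. It was 43 on TMM-scaled CPM and 38 on CPM scaled by DESeq2 size factors, each with all 23 among them. It was 6 and 56 with a non-intestine limit of 0.1 and 0.5 CPM, 54 and 15 with an intestinal limit of 2 and 10 CPM, and 32 with group medians, which kept 22 of the 23. Leaving out a library or an animal gave 22 to 33 transcripts, with 17 to 23 of the members kept. No member was called between medial and lateral intestine in any of 25 alternatives, with or without the replicate block. The median log2 fold change of the members was between -0.20 and 0.37 when a library or an animal was left out, 0.01 without scaling and 0.12 with the animal as a block. With the replicate block CIB2 (dd_7205) had a log2 fold change of 0.0093, against -0.38 in the fit with all libraries, and between -0.80 and 0.063 with a library or an animal left out (0.063 without animal 3). SLC47A2, CMA1 and dd_13694 kept their sign in all 25. The non-intestine percent was between 0.759% and 1.35% with a library or an animal left out. Depth limits the non-intestine values, which rest on 338 counts.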
